A study of Homo sapiens with 2 samples.

Results

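The genes described here are 10 genes of the precursor B-cell program: the surrogate light chain genes VPREB1 and IGLL1 with their relative VPREB3, the recombination genes RAG1, RAG2 and DNTT, the surface antigen genes CD24 and MME, and the transcription factor genes LEF1 and SOX4. They were chosen by name for their roles in early B-lineage development, with earlier results of these data known. Of the 10, 9 had a row among the 37122 rows of the count table, and 8 had at least 10 reads in the 2 libraries together. CD24 had no row, and DNTT had 0 reads in both libraries. RNA-seq compared Ramos, a human Burkitt's lymphoma cell line, with Ramos640, a line obtained from Ramos by stepwise exposure to rising concentrations of the anti-CD20 antibody rituximab in the presence of normal human serum. Ramos640 was kept under rituximab (640 mg/mL as labelled, a unit that differs from the microgram unit in the study's methods) with 20% normal human serum, given every 21 days, and the labels name no such treatment for Ramos. Both lines grew in the same RPMI medium with fetal bovine serum, and Ramos640 is labelled as resistant to rituximab. Each cell line was 1 library of RNA pooled from 3 passages, so no difference below has a replicate check, and the effect of rituximab cannot be told apart from that of the human serum or of the culture history.

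In the bone marrow, precursor B cells assemble their immunoglobulin genes with the RAG1/RAG2 recombinase, and the terminal transferase encoded by DNTT adds nucleotides at the joints. Before a light chain is made, the heavy chain is carried to the surface with a surrogate light chain made of the VPREB1 and IGLL1 (λ5) proteins, which together with CD79A and CD79B form the pre-B-cell receptor. These genes are switched off in most mature B cells, whereas MME (the antigen CD10) returns in germinal centre B cells and is a routine marker of Burkitt's lymphoma.

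The libraries held 38030090 reads for Ramos and 30871826 for Ramos640, and levels are given as CPM, the reads of a gene scaled to a library of 1000000 reads. The floor of a library, 3 reads, corresponded to 0.0789 and 0.0972 CPM. The fold change was computed on reads divided by size factors with a pseudocount of 1, as Ramos640 over Ramos, and intervals are at 95% and cover counting error only. A gene was counted as higher or lower when its fold change was past 1.5. The B-cell identity of both libraries was checked first: all 8 B-cell markers had reads in both, with summed levels of 5252 CPM in Ramos and 6365 in Ramos640. Of the 6 haematopoietic progenitor markers, 5 had 0 reads in both libraries, CD34 and KIT among them.

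Among the 8 genes tested, IGLL1 and RAG2 were higher in Ramos640 and VPREB1, VPREB3 and MME were lower, while RAG1, LEF1 and SOX4 lay within 1.5-fold. The 2 higher genes stand beside 14.6% of the 18778 genes tested that were higher by the same rule, and the 3 lower genes beside 17.3% that were lower. The same 5 genes had their whole counting interval past 1.5-fold, as had 5.79% of all genes on the higher side and 7.35% on the lower. Over the 8 genes the log2 fold changes had a median of -0.18, against -0.015 over all genes tested. The genes thus did not move as a group, and with 8 genes these shares are a description only. In bulk RNA, fewer cells with a transcript and less transcript per cell cannot be told apart.

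**Figure D1:**
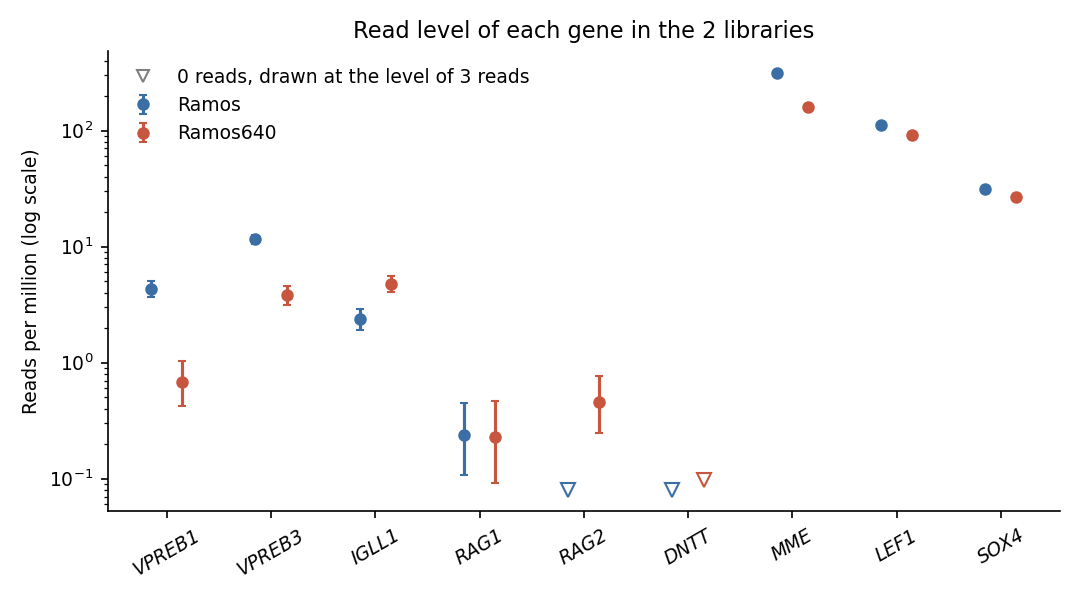
Read level of 9 genes in the Ramos (blue) and Ramos640 (red) libraries, in CPM (reads per 1000000) on a log axis. Points are the 1 library of each line, bars are exact Poisson 95% intervals, and open triangles mark 0 reads, drawn at the level of 3 reads. VPREB1 and VPREB3 lie lower in Ramos640 and IGLL1 higher, with intervals that do not overlap, and RAG1, RAG2 and DNTT lie under 1 CPM in both libraries.

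VPREB1, VPREB3 and IGLL1 lie on chromosome 22, and the DNA upstream of their starts is shown because the 3 genes share a chromosome and a receptor pathway but not a direction. Each line gives the 250 bases before the start of the gene from RefSeq (GRCh38.p14), read 5′ to 3′ on the strand of the gene, at chr22:22244536-22244785 (plus strand) for VPREB1, chr22:23580291-23580540 (minus strand) for IGLL1 and chr22:23754426-23754675 (minus strand) for VPREB3. Capitals mark matches, on either strand, to the EBF1 half-site pair CCCNNGGG, the E-box CAGGTG, the octamer ATGCAAAT or the LEF1/TCF motif CTTTGAA.
VPREB1: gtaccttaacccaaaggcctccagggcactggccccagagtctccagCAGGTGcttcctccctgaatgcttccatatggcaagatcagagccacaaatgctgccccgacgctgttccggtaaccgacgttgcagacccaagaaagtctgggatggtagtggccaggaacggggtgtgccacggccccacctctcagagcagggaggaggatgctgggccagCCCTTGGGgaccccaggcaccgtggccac
IGLL1: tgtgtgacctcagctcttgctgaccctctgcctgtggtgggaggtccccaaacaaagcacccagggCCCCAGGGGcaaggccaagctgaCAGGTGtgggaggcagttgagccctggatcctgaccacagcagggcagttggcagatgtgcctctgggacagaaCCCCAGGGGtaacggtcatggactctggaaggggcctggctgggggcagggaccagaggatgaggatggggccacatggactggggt
VPREB3: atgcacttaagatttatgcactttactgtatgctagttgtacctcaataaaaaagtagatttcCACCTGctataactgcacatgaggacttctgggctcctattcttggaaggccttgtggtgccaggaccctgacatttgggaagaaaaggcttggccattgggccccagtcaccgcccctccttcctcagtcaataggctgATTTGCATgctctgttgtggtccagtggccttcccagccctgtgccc

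The VPREB1 window held an E-box and an EBF1 half-site pair, and so did the IGLL1 window, in which the half-site pair matched at a pair of places, each time as overlapping matches 1 base apart. The VPREB3 window held an E-box and an octamer, both read on the strand opposite to the one printed, and no half-site pair. Over the 35116 windows of this length, 17.1% held the half-site pair, 17.5% the E-box, 1.63% the octamer and 3.8% the LEF1/TCF motif. Of the 10 genes, 5 had a half-site pair (VPREB1, IGLL1, CD24, MME and SOX4), 6 had an E-box (VPREB1, VPREB3, IGLL1, DNTT, CD24 and MME), 1 had the octamer (VPREB3) and 0 had the LEF1/TCF motif. Some genes have more than 1 start. Of the 15 windows of the 10 genes, 5 held the half-site pair, 7 the E-box and 1 the octamer. The shares above are also per window, but windows of a gene can overlap. The same MME E-box was counted in more than 1 window, so these counts are a description only. A match is a run of letters and not a shown binding site, and VPREB1 and IGLL1, which held the same motif kinds, differed in opposite directions between the libraries.

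VPREB1, which encodes the variable-like part of the surrogate light chain (chr22:22599192-22599927, plus strand, GRCh37), had 163 reads in Ramos and 21 in Ramos640. Its level was 4.29 CPM (95% interval 3.65 to 4.997) in Ramos and 0.680 (0.421 to 1.04) in Ramos640. This was 5.76-fold lower in Ramos640 (interval 3.77 to 9.89), a log2 fold change of -2.53, and it was the largest in size among the 7 of the genes with reads in both libraries. The row shared no stretch of 50 bases with another annotated gene, so reads of that length had 1 possible source among the annotated transcripts. Within 250 kb of VPREB1, 13 genes were tested, none of them annotated as protein-coding with 100 reads or more. Rows of other types were read there, and the examples given were picked with their values known. The immunoglobulin variable gene IGLV6-57 had 371 and 227 reads, a log2 fold change of -0.33 (-0.57 to -0.085). The pseudogene PRAMEL had 420 and 526 reads (0.70, interval 0.52 to 0.89). VPREB1 lay below both.

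IGLL1, which encodes λ5, the constant-like partner of VPREB1 (chr22:23915312-23922489, minus strand, GRCh37), differed the other way. The reads numbered 90 in Ramos and 147 in Ramos640, or 2.37 (1.90 to 2.91) and 4.76 (4.02 to 5.60) CPM. It was 2.11-fold higher in Ramos640 (interval 1.63 to 2.80), and the intervals of the 2 levels did not overlap. IGLL1 has close copies on chromosome 22. Of its 50-base stretches, 8.29% occur in another gene, 6.38% in the pseudogene IGLL3P and 1.91% in IGLL5 and IGLC1. IGLL3P held only 5 and 7 reads. IGLL5, a mature B-cell gene spliced to the λ joining and constant segments, held 1004 reads in Ramos and 1522 in Ramos640 and was higher by 0.98 on the log2 scale (0.87 to 1.10), a difference close in size to the 1.08 (0.70 to 1.48) of IGLL1. How reads that match both genes were counted is not given in the sources used here, and the part of IGLL5 reads in the IGLL1 value was not tested.

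The pair of surrogate light chain genes therefore changed order by the reads as counted, with the part of IGLL5 reads in the IGLL1 value not tested. Per exon length, VPREB1 was at 6.59 RPKM (CPM divided by the exon length in kilobases) in Ramos and IGLL1 at 2.64. VPREB1 thus stood 2.50 times above IGLL1. The exon length joins all annotated exons of a gene, and an error in it is not part of any interval. In Ramos640, VPREB1 was at 1.05 (0.648 to 1.60) and IGLL1 at 5.30 (4.48 to 6.23) RPKM, so that IGLL1 stood 5.07 times above VPREB1. The ratio of the 2 genes moved by 12.7-fold between the libraries, a value that does not depend on how the libraries are scaled to each other, since both genes come from the same library each time.

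VPREB3 encodes a relative of VPREB1 that is held in the endoplasmic reticulum with newly made immunoglobulin chains and is also expressed in germinal centre B cells and Burkitt's lymphoma. The gene (chr22:24094930-24096612, minus strand, GRCh37) had 438 reads in Ramos and 117 in Ramos640, or 11.5 (10.5 to 12.6) and 3.79 (3.13 to 4.54) CPM. It was 2.86-fold lower in Ramos640 (interval 2.34 to 3.56), and like VPREB1 it shared no 50-base stretch with another gene. Per length it stood 7.71 times above IGLL1 in Ramos and 1.26 times in Ramos640. The 10 protein-coding genes with 100 reads or more within 250 kb of VPREB3, IGLL1 among them, had a median log2 fold change of 0.11 and ranged from -0.86 to 1.08, so VPREB3 at -1.52 lay below each of them. Among these neighbours, chosen here after their values were seen, SMARCB1 had 13903 and 11219 reads (log2 fold change 0.072) and CHCHD10 had 2399 and 1848 (0.0046), both within 1.5-fold.

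**Figure D2:**
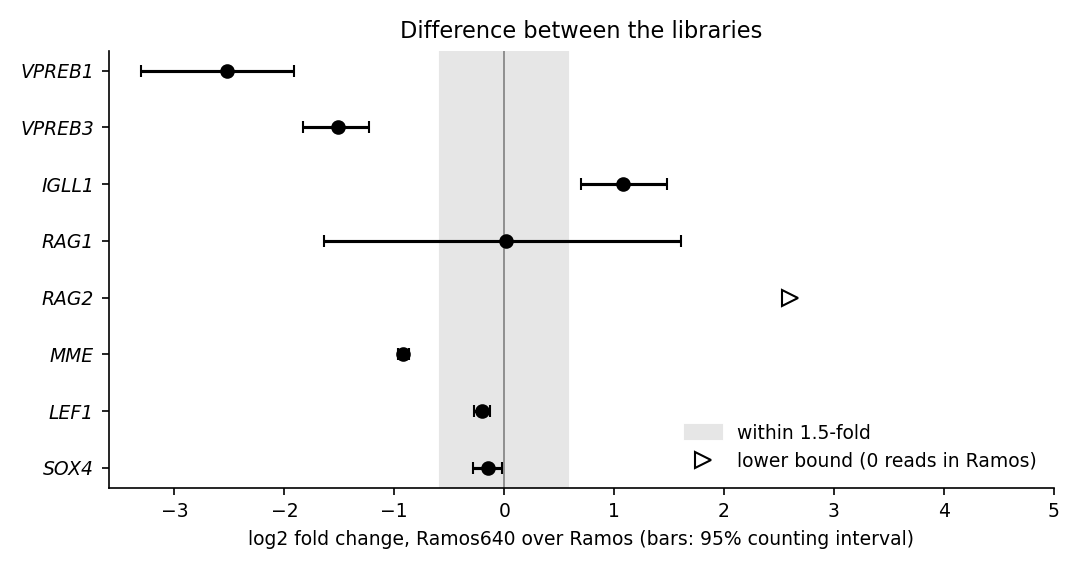
Log2 fold change of 8 genes, Ramos640 over Ramos, with the 95% counting interval as bars and the range within 1.5-fold in grey. VPREB1 (-2.53), VPREB3 (-1.52) and MME (-0.92) lie left of the grey range and IGLL1 (1.08) right of it, while the RAG2 triangle is a lower bound because Ramos had 0 reads.

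The recombination genes were near the limit of detection in both libraries. RAG1, the catalytic subunit of the recombinase (chr11:36531922-36614706, plus strand, GRCh37), had 9 reads in Ramos and 7 in Ramos640, or 0.237 (0.108 to 0.449) and 0.227 (0.0912 to 0.467) CPM. Its log2 fold change of 0.016 had an interval from -1.64 to 1.61, so a difference of 1.5-fold or 2-fold in either direction was not detectable at this depth. RAG2, its partner subunit (chr11:36597124-36619829, minus strand, GRCh37), had 0 reads in Ramos and 14 in Ramos640, or 0.453 (0.248 to 0.761) CPM. Against the floor of 3 reads in Ramos it was at least 6.08-fold higher in Ramos640, a bound that takes the 14 reads as exact, and the 95% interval with their counting error begins at 4.32-fold. The floor corresponds to 0.0789 CPM, and the exact Poisson interval of 0 reads in Ramos reaches 0.0970 CPM. Per length RAG2 was at 0.129 RPKM (0.0708 to 0.217) in Ramos640 and RAG1 at 0.0281 (0.0113 to 0.0579), so the pair was uneven in the library in which RAG2 was read.

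The RAG2 value rests on few reads and on a crowded piece of the genome. RAG1 and RAG2 lie next to each other on opposite strands, and their annotated exons share 588 bases. RAG2 also shares 372 exon bases with IFTAP, whose row had 0 reads in both libraries. Of the 50-base stretches of RAG2, 21.2% occur in another gene, 13.6% in RAG1. Whether the counting used strand is not given in the sources used here, so reads from the shared bases cannot be assigned to 1 of the genes. DNTT, the terminal transferase gene (chr10:98064166-98098321, plus strand, GRCh37), had 0 reads in both libraries, for which the exact Poisson interval reaches 0.0970 CPM in Ramos and 0.119 in Ramos640, and no fold is given for it. RAG and DNTT transcripts also occur in thymocytes. In the T-cell and thymocyte marker list, 5 of 10 genes had 0 reads in both libraries (CD3D, CD2, CD7, CD8A and CD8B), and the summed level was 1.10 CPM in Ramos and 3.11 in Ramos640, with no single direction: CD3E had 1 and 31 reads, CD247 25 and 58, and PTCRA 1 and 6, whereas CD3G had 5 and 1 and CD1A 10 and 0. The part of this in the RAG2 value was not tested.

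MME encodes the membrane metalloendopeptidase known as CD10, the common acute lymphoblastic leukaemia antigen (chr3:154741913-154901493, plus strand, GRCh37). It was the most abundant of the genes by reads, with 12005 in Ramos and 4880 in Ramos640, or 316 (310 to 321) and 158 (154 to 163) CPM. It was 1.89-fold lower in Ramos640 (interval 1.83 to 1.95), and at this depth the counting error was small beside the difference. MME is also expressed by stromal and some epithelial cells, and the 8 markers of such cells had summed levels of 31.1 CPM in Ramos and 12.1 in Ramos640. Of the 6 genes tested, 5 were lower in Ramos640, beside 17.3% of all genes. Only 2 of them, COL1A1 (651 and 192 reads) and COL1A2 (466 and 162 reads), had their whole counting interval past 1.5-fold, beside 7.35% of all genes. These collagen genes made up most of the summed level, whereas EPCAM had 0 reads in Ramos and 1 in Ramos640. The part of such a source in the MME value was not tested. MME shares 214 exon bases with MME-AS1, and 1.74% of its 50-base stretches occur in another gene.

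CD24 encodes a small glycosylated surface protein that is abundant on precursor B cells, and it had no row in the count table. The 3 RefSeq windows upstream of CD24 starts were cut into 10 pieces of 25 bases each, and 0 of 10 pieces of each window occurred on chromosome 6 of GRCh37, the build of the alignment. The windows of the other genes had 9 (VPREB1) or 10 of 10 pieces in that build. The table did hold rows of processed copies of CD24. CD24P4 (chrY:21154353-21154595, GRCh37) had 320 reads in Ramos and 47 in Ramos640 and was 5.15-fold lower in Ramos640 (interval 3.84 to 7.26). CD24P2 on chromosome 15 had 19 and 3 reads, CD24P1 had 0 and 1, and CD24P3 had 0 in both. Whether the reads of the CD24P4 and CD24P2 rows came from the copies or from CD24 itself was not tested, and they are not given as values of CD24.

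LEF1 and SOX4 encode DNA-binding proteins of the high-mobility-group family that act in the survival and differentiation of early B cells, LEF1 together with β-catenin. LEF1 (chr4:108968701-109090112, minus strand, GRCh37) had 4227 reads in Ramos and 2821 in Ramos640, or 111 (108 to 115) and 91.4 (88.0 to 94.8) CPM. Its log2 fold change was -0.20 (-0.27 to -0.13). SOX4 (chr6:21593982-21598850, plus strand, GRCh37) had 1192 and 824 reads, or 31.3 (29.6 to 33.2) and 26.7 (24.9 to 28.6) CPM, with a log2 fold change of -0.15 (-0.28 to -0.022). Both intervals lay wholly within 1.5-fold, so at this depth counting error leaves no room for a difference of that size between these libraries in either gene. The antisense gene LEF1-AS1, which shares 279 exon bases with LEF1 on the other strand, had 560 and 397 reads and a log2 fold change of -0.11 (-0.30 to 0.073).

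Per exon length, the order of the genes in Ramos was MME (32.0 RPKM), LEF1 (20.7), VPREB3 (20.3), VPREB1 (6.59), SOX4 (6.44), IGLL1 (2.64) and RAG1 (0.0293), with RAG2 and DNTT at 0. The intervals of LEF1 and VPREB3 overlapped, as did those of VPREB1 and SOX4, so the order within each of these pairs is not set. The annotation used for counting is not given, so the order between genes also depends on the exon lengths taken here. In Ramos640 the order was LEF1 (17.0 RPKM), MME (16.0), VPREB3 (6.68), SOX4 (5.48), IGLL1 (5.30), VPREB1 (1.05), RAG2 (0.129) and RAG1 (0.0281), and here the intervals overlapped between LEF1 and MME and among VPREB3, SOX4 and IGLL1. VPREB1 thus stood level with SOX4 in Ramos and below it in Ramos640, and VPREB3 stood level with LEF1 in Ramos and below it in Ramos640. Set among all protein-coding genes by RPKM, VPREB1 went from percentile 75.6 to 54.8, VPREB3 from 90.0 to 76.8 and IGLL1 from 62.5 to 73.8, whereas LEF1 (90.2 and 88.6) and SOX4 (75.2 and 74.2) kept nearly the same rank.

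The libraries differed along the GC content of transcripts. Coding genes with 100 reads or more were split into 10 bins of GC content, and the median log2 fold change ran from -0.34 in the lowest bin to 0.19 in the highest. MME (GC content 37.9%) sits where the trend is negative. With the trend removed its log2 fold change was -0.62 in place of -0.92, as a point value just past 1.5-fold. VPREB1 (58.2%) and VPREB3 (57.5%) sit where the trend is positive, and with it removed their log2 fold changes were -2.70 and -1.71. IGLL1 (62.9%) was at 0.86 with the trend removed.

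**Figure D3:**
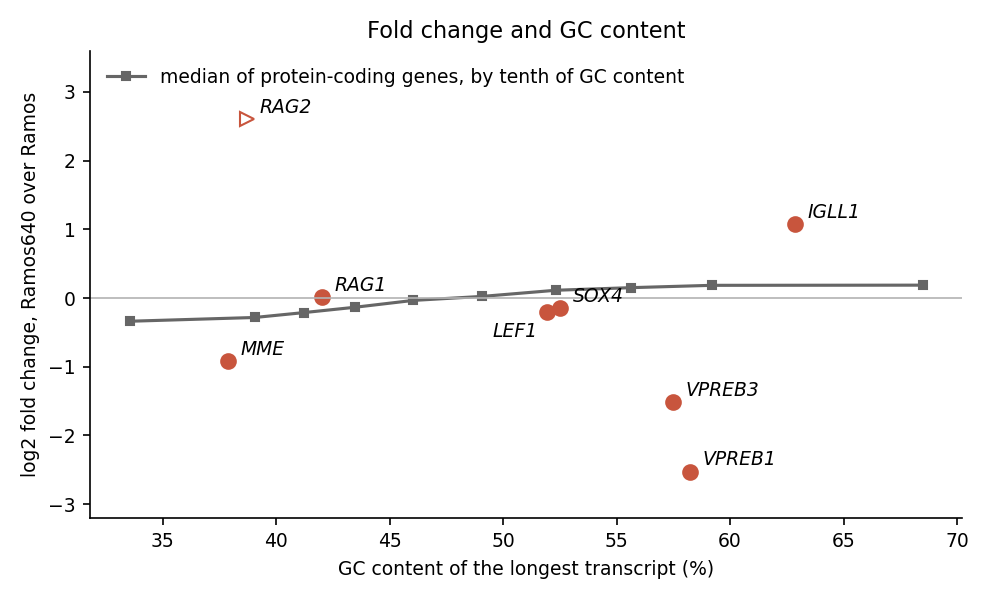
Log2 fold change, Ramos640 over Ramos, against the GC content of the longest annotated transcript in percent. Red points are the genes described, the open triangle is the lower bound of RAG2, and the grey line is the median of protein-coding genes in 10 bins of GC content, which runs from -0.34 to 0.19. VPREB1, VPREB3 and IGLL1 lie far from the line, on opposite sides of it.

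The end joining list holds genes that act in the repair of the breaks that RAG1 and RAG2 make, and also the recombinase cofactors HMGB1 and HMGB2. All of its genes were read in both libraries. Of 14, 3 were lower in Ramos640 and 0 higher, with a median log2 fold change of -0.16 against -0.015 over all genes. This count is near the 17.3% of all genes that were lower and is no result about the list. The lower genes were LIG4, the ligase of the pathway (681 and 270 reads, -0.95), HMGB1, a DNA-bending cofactor of the recombinase (13773 and 5838 reads, -0.86), and APLF (185 and 83 reads, -0.77). HMGB2, the gene of the list with the most reads, had 49182 and 32412 and a log2 fold change of -0.22. With the GC trend removed, 1 of the 14 was lower. The repair partners of RAG were thus well read in libraries in which RAG1 had under 10 reads.

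Of 18 early B-lineage transcription regulators, 17 were tested, 4 were lower in Ramos640 and 0 were higher, with a median of -0.37. These 4 were FOXO1, an activator of RAG1 and RAG2 (1917 and 811 reads, log2 fold change -0.86), RUNX1 (561 and 242, -0.83), PAX5, the B-lineage commitment factor (4624 and 2039, -0.80), and MEF2C (2731 and 1355, -0.63). ETS1 had the most reads of the list, 21863 and 13942, and a log2 fold change of -0.27. EBF1 and TCF3 are named outside the rule for named genes, after their values were seen. EBF1, an activator of VPREB1 and IGLL1, had 692 and 362 reads (-0.55, interval -0.74 to -0.37). TCF3, which encodes the E-box-binding E2A proteins, had 17580 and 13559 (0.0064). Both values lay within 1.5-fold, but EBF1 was 1.47-fold lower and its interval reached past 1.5-fold. The 4 of 17 stand beside 17.3% of all genes lower, too near to be a result about the list. Scaling by total counts made 7 of the 17 lower, beside 20.4% of all genes.

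Of 12 surface genes of progenitors and precursors, CD34, KIT and CD93 had 0 reads in both libraries and CD9 had 9 and 0. Of the 8 tested, 5 were lower and 0 higher, beside 17.3% of all genes that were lower. The list was chosen with earlier results of these data known, so the count is a description only. Removal of the GC trend left 5 lower, with a list median of -0.74 in place of -1.07 and PTPRC at -0.61, just past 1.5-fold. IL7R, the receptor for the growth factor of early lymphocytes, had 237 reads in Ramos and 0 in Ramos640. Against the floor of 3 reads in Ramos640 it was at least 60.7-fold lower, a bound that takes the 237 reads as exact. With their counting error the interval of IL7R reaches a log2 fold change of -5.61, a smaller difference than that bound. CD99 had 454 and 6 reads, a log2 fold change of -5.67 (-7.31 to -4.73). ITGA4, an integrin subunit for adhesion to marrow stroma, had 2467 and 838 reads (-1.18), and PTPRC, the CD45 gene, had 8585 and 3367 (-0.97). FLT3, under 100 reads and named after its values were seen, had 45 and 3. CXCR4, with the most reads (18906 and 13479), had a log2 fold change of -0.11.

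The partners of the B-cell receptor, several of which also serve the pre-B-cell receptor, were higher or within 1.5-fold in Ramos640. Of 10 tested, 4 were higher in Ramos640 and 0 lower: IGHD (344 and 525 reads, log2 fold change 0.99), IGLL5 (0.98), IGHM, the µ heavy chain (74596 and 96811 reads, 0.76), and CD79B (69495 and 82890 reads, 0.64). The median of the list was 0.30. The 4 of 10 stand beside 14.6% of all genes that were higher, and the count is a description only. With the GC trend removed 2 were higher, beside 12.6% of all genes. With scaling by total counts 3 were higher and 1 lower, beside 12.5% and 20.4% of all genes. The µ heavy chain gene, whose product VPREB1 and IGLL1 bind in precursor cells, thus had far more reads than either.

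Of 12 paralogs of LEF1 and SOX4 and partners of β-catenin, 11 were tested, 4 were lower in Ramos640 and 0 higher, with a median of -0.015. The 4 of 11 stand beside 17.3% of all genes that were lower, and the count is a description only. SOX11, a relative of SOX4, had 122 and 43 reads (log2 fold change -1.11, interval -1.66 to -0.61). The others, under 100 reads and named after their values were seen, were the β-catenin target AXIN2 (67 and 14 reads, -1.81) and the LEF1 paralogs TCF7 (25 and 3 reads) and TCF7L1 (14 and 1). CTNNB1, the β-catenin gene, had the most reads, 4873 and 3403, and a log2 fold change of -0.14. LEF1 and SOX4 themselves stood with CTNNB1 within 1.5-fold.

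**Figure D4:**
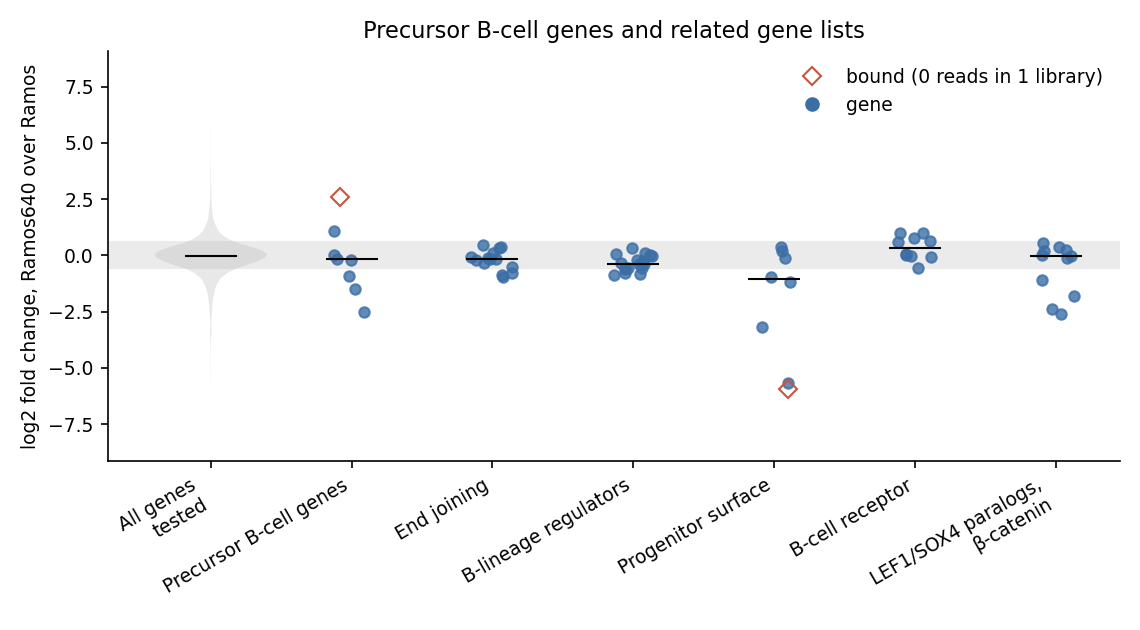
Log2 fold change, Ramos640 over Ramos, of all genes tested (grey outline) and of the genes in 6 lists (blue points), with the range within 1.5-fold in grey and a dash at each median. Diamonds are bounds for genes with 0 reads in 1 library (RAG2 and IL7R). The precursor B-cell genes spread to both sides (median -0.18), the progenitor surface genes lie lowest (median -1.07) and the B-cell receptor genes highest (median 0.30).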

How the data were processed

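RNA pooled from 3 passages of each cell line was sequenced on an Ion Proton as 1 library per line. The authors aligned the reads to GRCh37 with MapSplice, counted reads per gene and deposited whole-number counts without normalization. The annotation, the counting tool and its use of strand are not given in the sources used here. The 10 genes and the 5 pathway and 7 marker lists were chosen with earlier results of these data known.

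Size factors by the median of ratios (1.14 for Ramos, 0.876 for Ramos640) set the scale, and log2 fold changes used a pseudocount of 1 (Python 3.11.15, numpy 2.4.6, scipy 1.17.1, pandas 2.3.3). Rows with 10 or more reads summed over the libraries were tested (18778 of 37122). Fold changes carry 95% Clopper-Pearson intervals of the Ramos640 share of the reads, and levels carry exact Poisson intervals. A fold against 0 reads is a bound from a floor of 3 reads per library. PCR copies are not independent molecules, so these intervals cover counting error only. With 1 library per line, no count model could estimate a dispersion and no test was run. The procedure was tested on simulated data first.

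Exon lengths, GC content, overlaps and shared 50-base stretches came from GENCODE transcripts on GRCh37, which 28813 rows matched (84.2% of the genes tested), and upstream windows from RefSeq (GRCh38.p14). The GC trend was the running median of the fold change of coding genes with 100 or more reads. Alternatives were TMM factors (edgeR 4.0.16 in R 4.3.3), total counts, pseudocounts of 0.1 and 10, minimums of 1 and 100 reads, removal of the GC trend, the whole interval past 1.5-fold, and a threshold of 2-fold. Named were all 10 genes, their overlapping genes and close copies, and from each pathway list the gene with the most reads and up to 6 genes past 1.5-fold with at least 100 reads. Genes named outside this rule are marked in the text, except surface genes with under 10 reads and genes of the marker lists.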

Additional observations from a re-analysis of the deposited data

How the results depend on the processing

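Of the values recomputed, 66 stayed within counting error or within 1.5 times the count, 10 moved further and 0 changed sign while past 1.5-fold. With scaling by total counts the log2 fold change was -0.998 for MME and -0.28 for LEF1, and with the GC trend removed it was -0.62 and -0.32. For RAG2, a pseudocount of 10 gave a log2 fold change of 1.38, a fitted value that depends on the pseudocount because Ramos had 0 reads. A minimum of 100 reads left 1 gene higher, IGLL1, because RAG2 had too few reads to enter. At a threshold of 2-fold, MME left the lower genes. The share of all genes called was 5.79% higher and 7.35% lower when the whole interval had to pass 1.5-fold, and 6.64% and 8.75% at 2-fold. Scaling by total counts moved the median log2 fold change of all genes by -0.080, and TMM factors by -0.0097. Depth limits RAG1, RAG2 and DNTT, with at most 14 reads in a library. No paired analysis was possible because each cell line had 1 library and no replicate numbers.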

Other observations

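The 6 germinal centre markers, a stage at which MME and VPREB3 are also expressed, had summed levels of 1057 CPM in Ramos and 728 in Ramos640, and 2 of them, RGS13 and MYBL1, were lower in Ramos640. With the GC trend removed 0 of the 6 were lower (RGS13 at -0.42 and MYBL1 at -0.31), and with total counts 3 were. The plasma cell markers had summed levels of 940 and 1310 CPM, with 2 of the 4 genes tested higher and 1, TNFRSF17, lower, a call that was lost with the GC trend removed (-0.51). Among the B-cell markers, 2 were higher (CD79B and CD74) and 2 lower, and with the GC trend removed or with total counts 0 were higher. These marker counts stand beside 14.6% of all genes higher and 17.3% lower, and they are a description only. MS4A1, which encodes CD20, the antigen that rituximab binds, had a log2 fold change of -1.96 (9654 reads in Ramos, 1904 in Ramos640). The monocyte and neutrophil markers had summed levels of 0.605 and 0.713 CPM, and the haematopoietic progenitor markers had 1.03 and 0.518, all from SPINK2 (39 and 16 reads).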
